A study of Mus musculus with 2 samples.

Results

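The genes described here are 9 regulators and markers of the muscle lineage. They are the paired-box factors Pax3 and Pax7, the muscle basic helix-loop-helix (bHLH) factors Myod1, Myf5, Myf6 and Myog, the adhesion protein Cdh15 (M-cadherin), and the MADS-box factors Mef2a and Mef2c. All non-control probes that carry one of these gene names were taken, which gave 11 probes and 47 spots of the 39418 probes with a value. All 9 genes were on the array, among 22797 named genes, and 8 of them were measured on both arrays, among 14172. To count as measured, a gene needed a probe that the feature extraction flagged as well above background on each array.

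The RNA came from the gastrocnemius, a calf muscle, of male wild-type C57BL/6 mice at an age of 9 weeks. In the cast group the hindlimb had been immobilised with a plaster cast for 11 days, and the labels name no treatment for the control group. The labels give 6 mice per group and say that samples were pooled, so each group is 1 pool on 1 array. No value here therefore has a replicate, a p-value or a standard error over mice, and precision is limited by having 1 array per group.

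Satellite cells are the stem cells of skeletal muscle. They lie between the fibre and its basal lamina, are marked by Pax7, and start to divide and differentiate after injury. The muscle bHLH factors pair with the widely expressed E proteins and bind E-boxes, and they act in an order in which Myod1 and Myf5 commit cells to the lineage, Myog drives differentiation, and Myf6 (MRF4) is a main bHLH factor of adult fibres. The MEF2 factors work with them on the promoters of muscle genes, and class II histone deacetylases hold MEF2 back. In adult muscle the nuclei of the fibres also express several of these factors, and myogenin is known to increase after denervation.

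Cdh15 and Myf6 were the 2 members with a level 1.5-fold or more above control in the cast pool, and 0 of the 8 measured members were as much lower. Cdh15 was 2.55-fold higher, with a log2 ratio of cast over control of 1.35, and Myf6 was 1.64-fold higher, with a log2 ratio of 0.72. Mef2c and Myog followed at 0.49 and 0.42, and Myod1 at 0.18. Pax7, Pax3 and Mef2a lay at 0.08, 0.05 and 0.0011. Across all 14172 measured genes, 6.96% were at least 1.5-fold higher and 8.29% at least 1.5-fold lower, 15.2% in all. The median log2 ratio of the 8 measured members was 0.30, beside -0.03 over all measured genes, of which 46.8% were above 0. All 8 members were above 0, against 5 with normexp background correction and 6 in the authors' rounded table. Normexp correction here adds a fixed offset to both arrays, which by arithmetic draws the ratios of dim probes toward a common value.

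The 75th percentile of an array set the zero of these ratios. Left unscaled, the median of all genes lay 0.34 higher, and scaled to the spike-ins 0.35 higher, and each gene's ratio moved by the same amount. Of the genes at least 1.5-fold apart, 45.6% were higher on the cast array with the 75th percentile, 59.5% with median scaling, 89.6% unscaled and 90.2% scaled to the spike-ins. Relative to the median of all genes, the median of the members was 0.33 under each of these 4 scalings, which shift all genes alike.

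**Figure D1:**
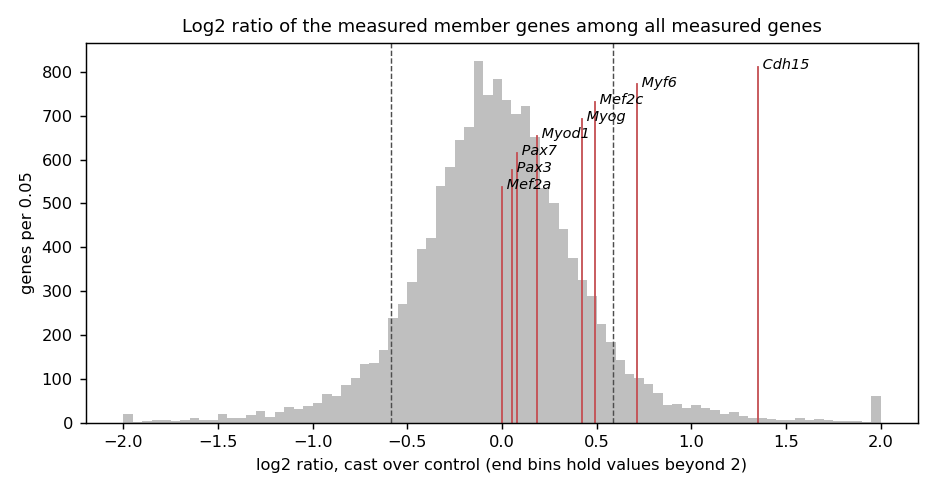
The histogram counts all 14172 measured genes by log2 ratio of cast over control, red lines mark the 8 measured member genes, and dashed lines mark 1.5-fold in each direction. Cdh15 at 1.35 and Myf6 at 0.72 lie beyond the upper dashed line, and Mef2a, Pax3 and Pax7 lie within 0.08 of 0.

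The paired-box factors come first in the lineage. Pax7, which satellite cells need for their maintenance, had a processed intensity of 54.6 in the control pool and 72.8 in the cast pool, both well above background. Scaled so that the 75th percentile of each array is 100, these became levels of 14.2 and 14.98. The log2 ratio of 0.08 was smaller than 0.13, the median SD of a log2 ratio between spots for probes in the dimmest of 4 signal bins. Pax7 was thus not distinguishable between the arrays at the precision of a spot when scaled to the 75th percentile. Its log2 ratio was -0.03 with normexp background correction and 0.16 with loess. Unscaled it was 0.42, and scaled to the spike-ins 0.43, which holds the shift of all genes. Its probe lies on chromosome 4 from 139294364 to 139294423 on the minus strand of the mm9 assembly.

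Pax3, the relative of Pax7 that marks the muscle progenitors of the embryo, was read by a pair of probes that differed in detection. They are shown because the choice of probe decides whether Pax3 counts as measured. Capitals mark the polyadenylation hexamer, which stands near the end of many transcripts.
Pax3 probe with 10 spots: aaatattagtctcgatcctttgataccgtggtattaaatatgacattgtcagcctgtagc
Pax3 probe with 1 spot: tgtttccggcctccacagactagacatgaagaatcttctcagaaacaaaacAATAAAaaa
On the minus strand of chromosome 1 in mm9, the first lies from 78099476 to 78099535 and the second from 78099294 to 78099353. On the 10-spot probe, 0 of 10 spots were well above background on either array. Its intensities ran from 2.82 to 4.28 on the control array and from 4.33 to 6.40 on the cast array. A surrogate value stood in place of the measured signal for 7 control spots and all 10 cast spots, so this probe gave no ratio. The second probe was flagged well above background on both arrays, at intensities of 17.0 and 22.3 and levels of 4.42 and 4.58. Its log2 ratio of 0.05 was within the spot SD of 0.13, and it turned to -0.12 with normexp correction and to -0.01 in the authors' rounded table.

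The bHLH factors of commitment are Myod1 and Myf5. The Myod1 probe was printed 10 times per array, and each spot was well above background. Its intensities ran from 186 to 236 with a median of 212 on the control array, and from 276 to 332 with a median of 306 on the cast array. After scaling, the levels ran from 48.4 to 61.4 and from 56.8 to 68.3, so the spots of the arrays overlapped. At each of the 10 positions the cast spot was the higher, by log2 ratios from 0.13 to 0.23 (SD 0.03, n = 10 spots), around the probe's 0.18. These are spots of a single pool on a single array, so their spread carries neither the variation between mice nor that between hybridisations. The difference of 1.14-fold lay in the bulk of all genes, since 28.2% of measured genes had a higher ratio.

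No spot of Myf5 passed as well above background. All of its 10 spots held surrogate values on both arrays, with intensities from 2.66 to 4.05 on the control array and from 4.15 to 6.28 on the cast array, and 2 control spots carried an outlier flag. A level cannot be read from these values, and no ratio is given for Myf5. The probe is shown for its composition.
Myf5 probe: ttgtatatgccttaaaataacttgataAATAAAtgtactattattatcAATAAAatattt
It has a GC content of 15%, beside 21.7% to 53.3% for the other member probes, and holds the hexamer in capitals at 2 places. Whether composition bears on its signal was not tested.

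Myf6, the gene next to Myf5 in the mouse genome, gave a clear signal. The mm9 coordinates place the Myf5 and Myf6 probes 10204 bases apart on chromosome 10. Myf6 had an intensity of 4987 in the control pool and 10349 in the cast pool, or levels of 1296 and 2129 after scaling. Its log2 ratio of 0.72 compares with a spot SD of 0.04 in the brightest of the 4 bins, and 4.59% of measured genes had a higher ratio. The Myf6 probe, a single spot, lies from 106930237 to 106930296 on the minus strand.
Myf6 probe: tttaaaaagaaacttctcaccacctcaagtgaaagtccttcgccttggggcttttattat

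Myog, the factor of terminal differentiation, was also printed 10 times. Its intensities ran from 145 to 166 with a median of 152 on the control array and from 239 to 281 with a median of 259 on the cast array. The scaled levels ran from 37.7 to 43.2 and from 49.2 to 57.8, so every cast spot was above every control spot. The log2 ratio was 0.42, with single positions from 0.32 to 0.50 (SD 0.06, n = 10 spots). It stayed under 1.5-fold, at 1.34-fold, and 12.8% of measured genes had a higher ratio. With normexp correction it was 0.30.

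**Figure D2:**
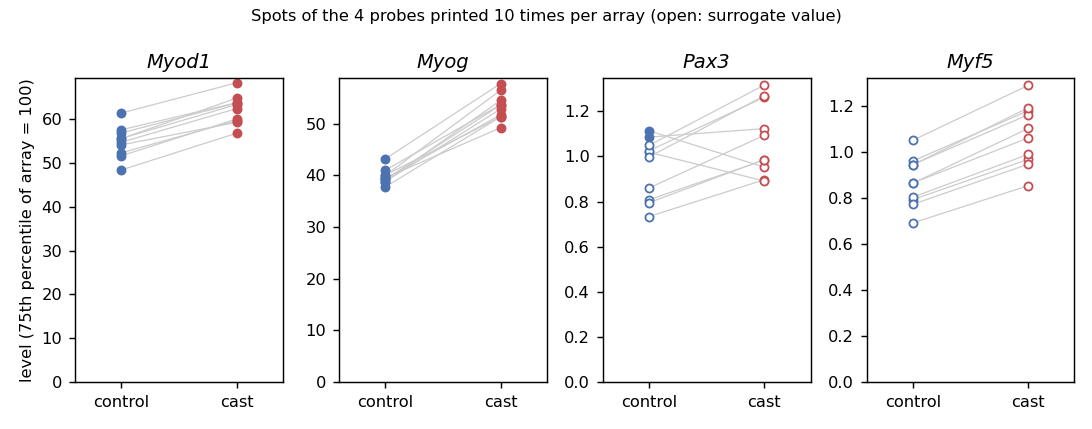
Each panel plots the level (75th percentile of the array = 100, axis from 0) of the 10 spots of a probe on the control and cast arrays, grey lines join the same position, and open points are surrogate values. Myog spots do not overlap between the arrays, Myod1 spots overlap but are higher on the cast array at each position, and Myf5 holds surrogates throughout.

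The promoter of Myog is shown because the muscle bHLH and MEF2 factors measured here are known to act on it. The sequence is RefSeq's for GRCm38.p6, from 250 bases before to 50 after the transcription start, at chr1:134289754-134290053 on the plus strand. Capitals mark the matches found to the E-box CANNTG and, at the middle match, to the MEF2 consensus with 1 mismatch. Both motifs read the same on either strand, and the matches here do not overlap.
Myog promoter: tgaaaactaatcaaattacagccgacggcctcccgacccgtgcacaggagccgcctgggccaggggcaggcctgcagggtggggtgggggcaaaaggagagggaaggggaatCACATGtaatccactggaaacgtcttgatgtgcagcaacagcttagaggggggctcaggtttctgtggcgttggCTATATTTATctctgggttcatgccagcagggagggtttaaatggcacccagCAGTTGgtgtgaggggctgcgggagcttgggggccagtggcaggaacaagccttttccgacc
Counted from the transcription start, the E-box matches begin at -138 and -12 and the MEF2 match at -64. Of 32851 mouse promoters of this length, 72.3% hold at least 1 E-box match, 39.6% hold at least 2, and 26.9% hold a MEF2 match with up to 1 mismatch. A match describes the letters only.

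Cdh15, M-cadherin, joins satellite cells to the fibre and myoblasts to each other, and its product is a surface marker of satellite cells. It had an intensity of 1218 in the control pool and 3925 in the cast pool. Scaled, the levels were 317 and 807. The log2 ratio of 1.35 is far above the spot SD of 0.04 for bright probes, and Cdh15 ranked 143 of 14172 measured genes by ratio. Cdh15 was also the 1 member at least 2-fold apart, a size that 2.23% of all genes reached upward and 2.15% downward, 4.37% in all. Under the 10 alternatives of scaling, background, filter, probe rule and input its log2 ratio ran from 1.33 to 1.70. A single spot of a single probe carries this result, on chromosome 8 of mm9 from 125391031 to 125391090 on the plus strand.
Cdh15 probe: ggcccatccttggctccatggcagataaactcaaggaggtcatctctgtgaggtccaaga
Cdh15 promoter: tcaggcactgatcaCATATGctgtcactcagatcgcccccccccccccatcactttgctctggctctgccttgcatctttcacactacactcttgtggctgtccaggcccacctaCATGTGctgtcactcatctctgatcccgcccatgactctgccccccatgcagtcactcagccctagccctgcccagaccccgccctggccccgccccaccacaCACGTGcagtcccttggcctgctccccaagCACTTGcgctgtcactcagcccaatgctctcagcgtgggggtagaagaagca
The promoter is RefSeq's, at chr8:122848124-122848423 on the plus strand of GRCm38.p6, and capitals mark its E-box matches. It holds 4, beginning at -236, -135, -32 and -2, and 6.49% of promoters hold at least as many. It holds no MEF2 match, and none of the member promoters held the E-box form CAGCTG, which 16.3% of promoters hold. The table gave promoters for 6 of the 9 members. Those of Pax7 and Myf5 held no match to either motif. That of Mef2a held an exact MEF2 match, as 3.19% of promoters do. The 3 promoters of Mef2c held 2, 0 and 1 E-box matches and, in the same order, 1, 2 and 0 MEF2 matches with 1 mismatch.

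The MEF2 factors differed from each other. Mef2c had an intensity of 1471 in the control pool and 2612 in the cast pool, with levels of 382 and 537. Its log2 ratio of 0.49, or 1.41-fold, was above the spot SD of 0.04 and below 1.5-fold, and 9.83% of measured genes had a higher ratio. The Mef2c probe is shown because its 60 bases cover a stretch of 2238 bases on chromosome 13 of mm9, from 83772788 to 83775025. A stretch longer than the probe means that it was placed in more than 1 block, and where the blocks meet was not analysed here.
Mef2c probe: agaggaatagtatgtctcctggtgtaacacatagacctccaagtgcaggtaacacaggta
Mef2a was read by a pair of probes, both well above background. The brighter had intensities of 337 and 426 and levels of 87.5 and 87.6, a log2 ratio of 0.0011. The dimmer had intensities of 89.3 and 119 and levels of 23.2 and 24.4, a log2 ratio of 0.07, within the spot SD of 0.13. Mef2a thus did not differ between these arrays beyond the spread of spots when scaled to the 75th percentile, and its log2 ratio was 0.34 unscaled and 0.35 scaled to the spike-ins, the shift of all genes. With normexp correction the brighter probe gave -0.03.

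**Figure D3:**
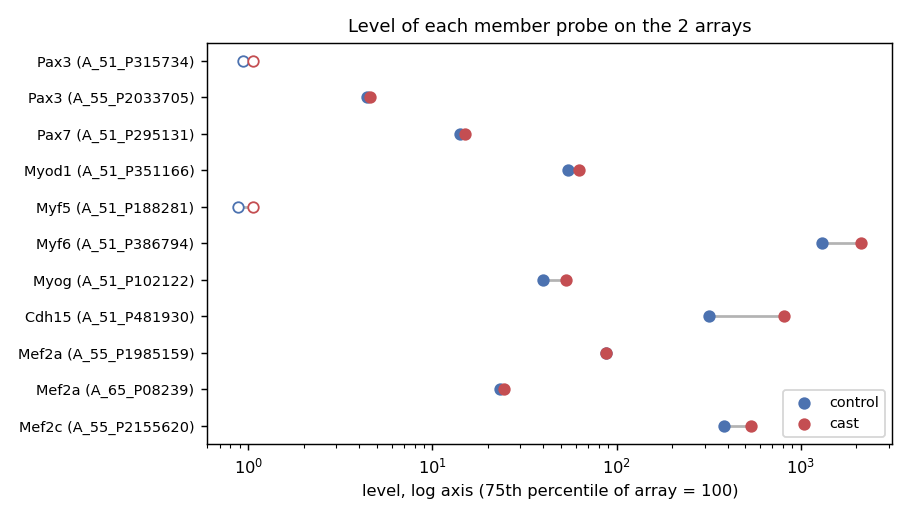
Each row is a member probe, with its level on both arrays on a log axis (75th percentile of the array = 100), and open points were not well above background. Cdh15 and Myf6 show the widest gaps, at 317 to 807 and 1296 to 2129, and levels of different probes are not comparable with each other.

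The members are part of a larger network, which was described with 7 lists of regulators and targets. Of the E proteins and their Id inhibitors, all 7 were measured, 1 was at least 1.5-fold higher and none lower, and the median was -0.06. Id2, an inhibitor that keeps E proteins from pairing with the muscle bHLH factors, was at 0.76, from levels of 24.0 to 40.5. With normexp correction Id2 was at 0.42. The E proteins Tcf12 and Tcf4 were at 0.23 and -0.17 and Id1 at -0.16. The negative values of Tcf4 and Id1 turned positive unscaled or scaled to the spike-ins.

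Of the MEF2 partners and brakes, 9 of 10 were measured, with 1 higher, 2 lower and a median of -0.09. Of the 4 class II histone deacetylases in the list, which repress MEF2, 1 was higher, 1 was lower and 2 were within 1.5-fold. Hdac4 was 1.73-fold higher, at levels of 159 and 275, and Hdac9 was 1.75-fold lower, at 35.9 and 20.5. Hdac5 was at 0.13, from levels of 1538 and 1680, and Hdac7, named with Hdac5 after its values were seen, at -0.09, from 292 and 275, or 0.25 with no scaling. Smyd1, a methyltransferase of muscle and a MEF2C target, was 1.64-fold lower by the brighter of its 2 probes. The other probe was at -0.56, under 1.5-fold, and their mean was -0.64. The family member Mef2b was at 0.34, from dim levels of 14.5 and 18.4, and at 0.10 with normexp correction. The family member Mef2d, named after its values were seen, was at -0.23, from levels of 160 and 137, or 0.11 with no scaling. Hdac9 and Smyd1 stayed lower but under 1.5-fold with no scaling, at -0.47 and -0.38, and Hdac9 did so with normexp correction, at -0.55.

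Among factors upstream of the bHLH genes or opposing them, 20 of 22 were measured, 1 was higher and 1 lower, and the median was -0.12. Hes1, a repressor downstream of Notch, was at 0.59 and Six5, a homeobox factor, at -0.62. Both calls were lost with normexp correction, at 0.20 and -0.38. Six5 also dropped under 1.5-fold with every other scaling tried, from -0.57 with quantile normalization to -0.27 with spike-ins. Eya4, a transcriptional coactivator, was at 0.57 and Six2 at -0.53. The other of the 2 probes of Six2 was at -0.76, and their mean was -0.65. With the mean of probes 3 genes of the list were 1.5-fold apart. The counts of this list are close to the background of all genes.

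Other genes of satellite cells went both ways. Of 22, 20 were measured, 3 were higher, 2 were lower, and the median was -0.12. The tetraspanin Cd82 was 2.24-fold higher, at levels of 460 and 1031, with its 3 probes between 0.92 and 1.17. The 3 probes of Ncam1, named after its values were seen, disagreed, from -0.04 for the brightest to 1.32. Their mean was 0.63, and with the mean of probes 6 genes of the list were 1.5-fold apart. Peg3 was at 0.83, from a dim probe that gave 0.13 with normexp correction. Chrdl2 was 2.77-fold lower, from 38.1 to 13.7, and the adhesion molecule Vcam1 was 1.65-fold lower, at -0.72, or -0.38 with no scaling and -0.53 with normexp correction. The calcitonin receptor Calcr, a mark of quiescent satellite cells, was well above background on the control array only, at a level of 5.99. After scaling it was at least 1.43-fold lower on the cast array, a bound that would be smaller unscaled. Calcr was named after its values were seen. With Calcr at its bound, the median of the list was -0.21. In pooled bulk RNA, a change in the number of cells and a change in RNA per cell cannot be told apart.

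The pattern among known targets of the muscle bHLH factors was more one-sided. Of 19 genes, 17 were measured on both arrays. With each gene at its brightest probe, 9 were at least 1.5-fold higher and none lower, beside 6.96% higher for all genes. The median was 0.61, beside -0.03 for all genes. Among the 9 were the acetylcholine receptor subunit Chrnb1, 3.93-fold higher from 58.9 to 232, and the cell cycle inhibitor Cdkn1a, 3.86-fold higher from 66.1 to 255. Tnnt2, the cardiac troponin T that developing muscle also makes, and the retinoblastoma gene Rb1 were both 3.60-fold higher. Cdkn1a is also a target of p53, and receptor subunits are also induced by denervation. The other subunits were named after their values were seen. The 2 probes of Chrna1 were at 1.55 and 0.86. Chrnd, Chrne and Chrng were at 0.19, 0.35 and 0.51, each under 1.5-fold. Acta1 and Ckm, also in the muscle fibre list and named after their values were seen, were at -0.54 and -0.37. The 2 probes of Myl1, named in the same way, disagreed. The brighter was at 0.29 and the other at -0.74, past 1.5-fold lower, and their mean was -0.22. The list was chosen with earlier results of these arrays known, so its direction is no independent evidence.

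A pair of genes in this list code for the membrane proteins that fuse myoblasts, and both passed the background flag in the cast pool alone. They are named after their values were seen. Mymx (myomixer, on the array as Gm7325) had an intensity of 387 on the cast array and a surrogate value of 3.54 on the control array. It was at least 23.4-fold higher in the cast pool, taken against the lowest control signal that counted as well above background, 13.1. Mymk (myomaker, on the array as Tmem8c) had intensities of 11.1 and 51.3 and was at least 3.104-fold higher. Each rests on a single spot. With both genes at their bounds, the median of the list over 19 genes was 0.73, and both enter through the cast array alone.
Mymk probe: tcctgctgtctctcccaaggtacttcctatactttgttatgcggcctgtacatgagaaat
Mymx probe: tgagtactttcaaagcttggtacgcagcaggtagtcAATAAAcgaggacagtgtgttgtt
In mm9, the Mymk probe is at chr2:26917594-26917653 and the Mymx probe at chr17:45737921-45737980, both on the minus strand, and capitals in the Mymx probe mark the polyadenylation hexamer.

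Targets of the MEF2 factors went both ways, with 17 of 17 measured, 2 higher, 1 lower and a median of 0.19. The actin-binding protein Xirp1 was 2.38-fold higher and Lmod3, which nucleates actin filaments, 1.71-fold higher. The muscle phosphoglycerate mutase Pgam2 was 1.65-fold lower and Jun was at 0.58. Pgam2 was at -0.38 with no scaling.

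Genes of cell division were near the background. Of 17, 12 were measured, 1 was higher, 1 was lower, and the median was 0.0034. The ribonucleotide reductase subunit Rrm2 was 2.28-fold higher and cyclin D1 (Ccnd1) 2.11-fold lower. Birc5 was at 0.41, from dim levels of 9.89 and 13.2, and at 0.04 with normexp correction. Ccne1 was at -0.31 and turned positive unscaled or scaled to the spike-ins. The mitotic genes Top2a, Ccnb1, Bub1 and Aurkb were not well above background on either array, and Cdk1 was so on the control array only, by 1 of its 3 probes.

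**Figure D4:**
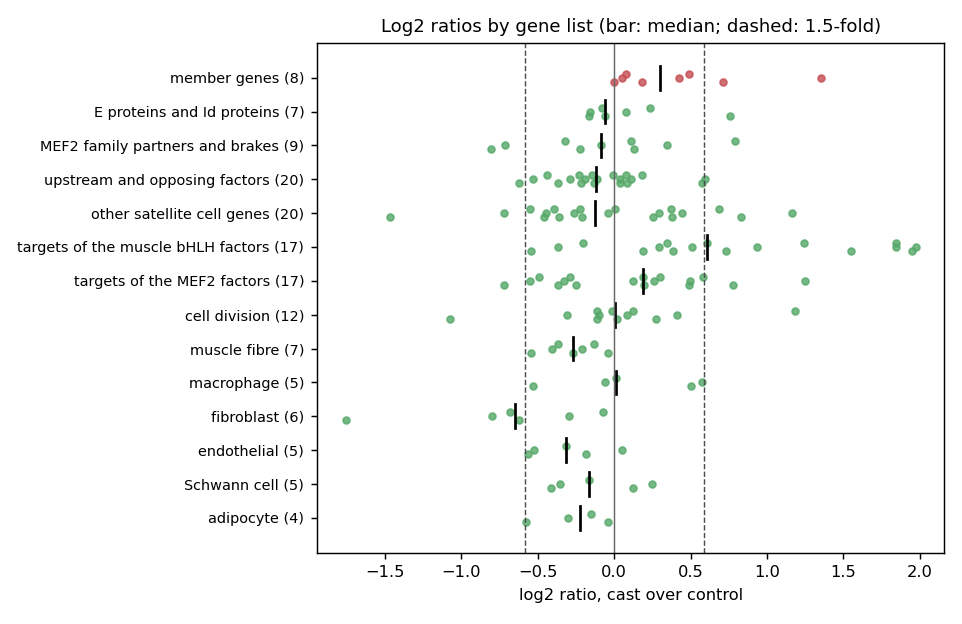
Each point is the log2 ratio of cast over control of a measured gene, rows are gene lists with the number measured, black bars are medians, and dashed lines mark 1.5-fold. The bHLH target list has its median at 0.61 and 9 genes beyond the upper line, and the fibroblast list has its median at -0.65.

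Markers of cell types were described beside the members, by ratios and levels that do not measure how many cells of a type the pools held. Summed levels add different probes, so the brightest probe weighs most in a sum. All 7 markers of the muscle fibre were measured and below 0, with a median of -0.27 and none 1.5-fold apart by the brightest probe. Their summed level was 283353 on the control and 234191 on the cast array. The 2 probes of Tnnt3 were at -0.27 and -0.94, and their mean was -0.60. With the mean of probes 1 fibre gene was 1.5-fold apart, as was 1 with loess. All 6 fibroblast markers were below 0, 4 of them by at least 1.5-fold, with a median of -0.65 and summed levels of 15665 and 11050, of which Dcn gave 11192 and 9130. Dcn and Pdgfra, at -0.29 and -0.07, lay above 0 unscaled or scaled to the spike-ins. Col1a1, Col3a1, Lum and Pdgfrl were at -1.76, -0.80, -0.68 and -0.62. Endothelial markers had a median of -0.32 over 5 genes and summed levels of 1643 and 1195. Macrophage markers had a median of 0.01 over 5 of 7 genes, with summed levels of 1991 and 1615. Itgam, at 1381 and 953, made up most of that sum, while Lyz2 and Mrc1 were at 0.58 and 0.50. Adgre1 and Csf1r were at -0.06 and 0.01. The markers Cd68 and Cd163 were not well above background on either array. Schwann cell markers had a median of -0.17 over 5 of 6 genes, with sums of 265 and 247, and adipocyte markers one of -0.23 over 4 of 5 genes, with sums of 4096 and 3611. Pmp2 and Lep were not well above background. The part of such cells in the ratios of the members was not tested. The medians for the fibre, endothelial, Schwann cell and adipocyte lists lay above 0 unscaled or scaled to the spike-ins, where the median of all genes did too.

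Of the 39418 probes, 60.6% were well above background in control and 56.8% in cast, and no gene spot was saturated. The lowest signal so called was 13.1 for control and 20.3 for cast. Both arrays lay on the same slide and share a scan time in the file headers. The 7 spike-in controls used had a log2 ratio of -0.35 (SD 0.04) after scaling. The position of the probes within exons was not analysed here.

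**Figure D5:**
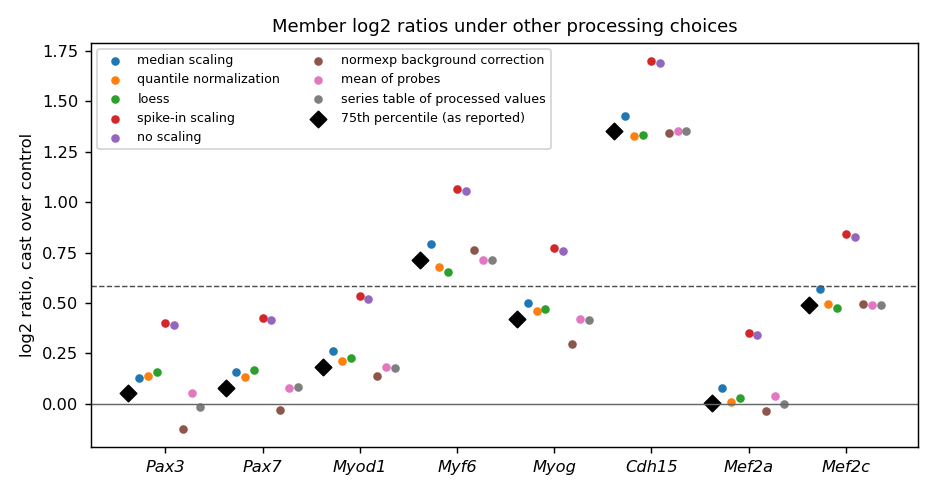
The log2 ratio of cast over control is plotted for the 8 measured members, with black diamonds for the values as reported, coloured points for other processing choices and a dashed line at 1.5-fold. Cdh15 and Myf6 lie above the line under each choice shown, Myog and Mef2c pass it with spike-in and no scaling only, and Pax3, Pax7 and Mef2a fall on both sides of 0.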

How the data were processed

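Gene expression was measured on 2 Agilent 1-colour mouse arrays, 1 per pool. The submitters' processing notes name Agilent Feature Extraction 9.5 as the tool. The deposited processed intensity is, per the file headers, background-subtracted and detrended within the array, with surrogate values near background, and is not normalized between arrays. The authors' table of the whole series holds the same intensity divided by the 75th percentile of all spots, times 100, with 54.9% of values rounded to whole numbers. Its column medians were 9.00 and 8.70, and it served as an alternative.

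Intensities were averaged over spots on the log2 scale, leaving out control spots and spots with an outlier flag, and the 75th percentile over non-control probes (385 and 486) was subtracted. A probe was well above background when more than 0.5 of its spots were flagged so, and a gene took its brightest such probe. Names came from the accession or current symbol in the RefSeq gene table (GRCm38.p6, names alone), for 30172 of 39418 probes. The spot SD of a log2 ratio is the median, over probes printed 10 times in the same of 4 signal bins, of the SD over positions. Only spots with no outlier flag that were well above background on both arrays entered. Probes that kept too few such spots were left out, which left 262 probes. With 1 array per group no test was run, and 1.5-fold is the size used for counts.

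The members and lists were chosen with earlier results of these data known. Named genes are all members and, per list, up to 4 measured genes with the largest absolute ratio, or for cell type markers those at least 1.5-fold apart. Other genes, such as Mymx, Mymk, Calcr, Acta1, Ckm, Myl1, Ncam1, Mef2d, further cell type markers and those not above background, were named after their values were seen. For genes above background on 1 array only, a bound sets the bright level against the higher of the lowest signal well above background and the dim probe's own. Alternatives used limma 3.58.1 (R 4.3.3) for normexp with offset 50, quantile and loess. Scaling and calling, run with numpy 2.4.6 and pandas 2.3.3, were tested on simulated data.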

Additional observations from a re-analysis of the deposited data

How the results depend on the processing

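The count of 2 members at least 1.5-fold apart became 4 with spike-in scaling and 4 with no scaling, where Myog and Mef2c joined, and was 1 at a 2-fold size. It did not change under the other 8 alternatives. The median of the members, 0.30, was 0.38 with median scaling, 0.65 with spike-in scaling, 0.64 with no scaling and 0.22 with normexp correction. The shifts under the first 3 are those of all genes, and the cause of the last was not tested. Over all genes, 2161 were at least 1.5-fold apart, against 3799 with spike-in scaling, 3707 with no scaling, 1356 with normexp, 4174 with no filter and 620 at 2-fold. No called member changed sign. Among single members and list summaries, 233 values stayed within a log2 ratio of 0.057 or within 1.5 times the count, and 120 moved further. The 0.057 is the median spot SD over all 262 probes, not that of a signal bin. With no filter, Myf5 had a ratio of 0.27 from surrogate values alone. With no scaling, the fibroblast list had 1 gene apart instead of 4, and the other satellite cell genes 9 instead of 5. No paired analysis was possible because each group is 1 array. Signal over background limits Pax3, Pax7 and Myf5, and the single array per group limits every value.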
